A study of Arabidopsis thaliana with 12 samples.

Results

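The light response of Arabidopsis seedlings was compared between night and subjective day, gene by gene. The quantity examined throughout is the change after a light pulse at night (night pulse minus night control) less the change after the same pulse in the day (day pulse minus day control), on the log2 scale. It is called here the difference of responses, and a positive value means that the night response was the more positive. All 12 of the 12 arrays of the study entered it, grouped by their titles. Each array was hybridized with RNA from the aerial rosette of wild-type plants of the Columbia ecotype, 15 days old. The plants had been raised in cycles of 12 h white light and 12 h dark and then kept in constant darkness. Night pulse and day pulse plants received 1 h of white light, and night control and day control plants were harvested with no pulse, giving 4 groups of 3 arrays. The labels do not say whether the 3 arrays of a group came from separate plants, so the p-values reflect array-to-array spread, part of which may be technical. The labels place the night samples at CT 6 and the day samples at CT 18, which by the usual count from subjective dawn would be the other way round, and the titles were followed. If the titles were exchanged instead, night and day would change places throughout, and every difference of responses and every night minus day difference would change sign.

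Plants sense light through phytochromes, cryptochromes and other receptors, and these signals meet an internal clock that runs on in darkness. The clock is known to gate light responses, meaning that the same pulse can have a strong effect at one phase and a weak one at another. It can also set the level from which a transcript starts. Night and day samples carry different CT labels in constant darkness, so they may differ in hours spent in the dark. Clock phase and time in darkness cannot be told apart here, and neither was tested as a cause. A difference of responses is by arithmetic the night minus day difference between pulsed arrays less the same difference between control arrays, and no array is used in both terms. Unequal starting levels that end alike after light can therefore be counted apart from alike starting levels that end unequal.

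Signals are the deposited intensities after an offset of 2 and quantile normalization, given on a linear scale. Signals under 21.7, the 40th percentile of mean signals, were set to that floor for fits and folds, and a fold resting on the floor is given as "at least". A group is called dim when its mean log2 signal lay under the floor. Levels are given as the mean ± SD of 3 arrays, and differences as log2 values ± SE of the limma fit. A probe set was called at a limma adjusted p under 0.05. Pulsed or control levels are called unequal when called and at least 2-fold apart, and alike when the 95% interval of their difference lay within 2-fold. Before normalization the median signal was 33.7, 25.0 and 28.1 on the day controls and 23.5 on day pulse replicate 1, below the 41.2 to 63.5 of the other 8 arrays. The part of this in the results was not tested beyond the scalings given below, and 3 arrays a group set the precision. The GAPDH 3′ to 5′ ratio, a measure of RNA integrity, reached 9.29 (day pulse replicate 1) and 8.75 (day control replicate 2), with 2.16 to 5.16 on the others. Of 7 listed leaf markers, the 2 with a named probe set, LHCB4.2 and RCA, read 1440 or more on every array. Of 5 listed root markers, EXPA7 and EXPA18 had named probe sets and lay under the floor on all 12, and the listed flower and seed markers had none. In whole rosettes, fewer cells of a type and less RNA per cell cannot be told apart.

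Light responses differed between night and day for 1994 of 13647 probe sets tested (14.6%). The night response was the more positive for 881 (6.46%) and the more negative for 1113 (8.16%). Of the 1994, 1643 were measured above the floor in all 4 groups, 178 gave a lower bound, and in 173 a dim group left the size not measured. Family counts, total calls and splits by direction take in all calls. Counts of classes and types of response below concern the 1821 measured or bounded, unless all calls are named. The day response was the larger in 1683 of these (92.4%), against 71.8% of all probe sets tested. Without normalization 473 were called. With each array centred on its median, 2201 were more positive and 729 more negative at night, a split of 75.1% positive against 44.2% in the fit reported here. That scaling moved the median difference over all probe sets from 0.04 to 0.30. Without day control replicate 3, positive calls fell to 573 and negative calls to 788 (42.1% positive). Without night control replicate 3 they fell to 574 and 786 (42.2% positive).

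Unequal control levels with alike pulsed levels were the commoner pattern. They were found for 622 of the 1821 probe sets (34.2%), against 7.86% of all probe sets tested. The mirror image, alike controls with unequal pulsed levels, was found for 141 (7.74%), against 2.40% of all tested. A call rests on the gap between these same differences, so that selection favours both classes, and their shares are given as a description. Both levels were unequal in 215 (11.8%), near the 11.4% of all tested. Both were alike in 32 (1.76%, against 26.6% of all tested), and in 811 at least 1 level was neither (44.5%, against 51.75%). The control difference was the larger of the pair in 1387 of the 1821 (76.2%), against 60.0% of all tested, again given as a description. Of all probe sets tested, 50.2% were called between the controls (26.0% higher and 24.2% lower at night) and 36.7% between the pulsed arrays (19.6% higher and 17.1% lower at night). The unequal-control class held 694 of all calls, and 1045 without day control replicate 1. The alike-control class held 174 of all calls, 312 without day pulse replicate 1 and 113 without day control replicate 3.

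**Figure D1:**
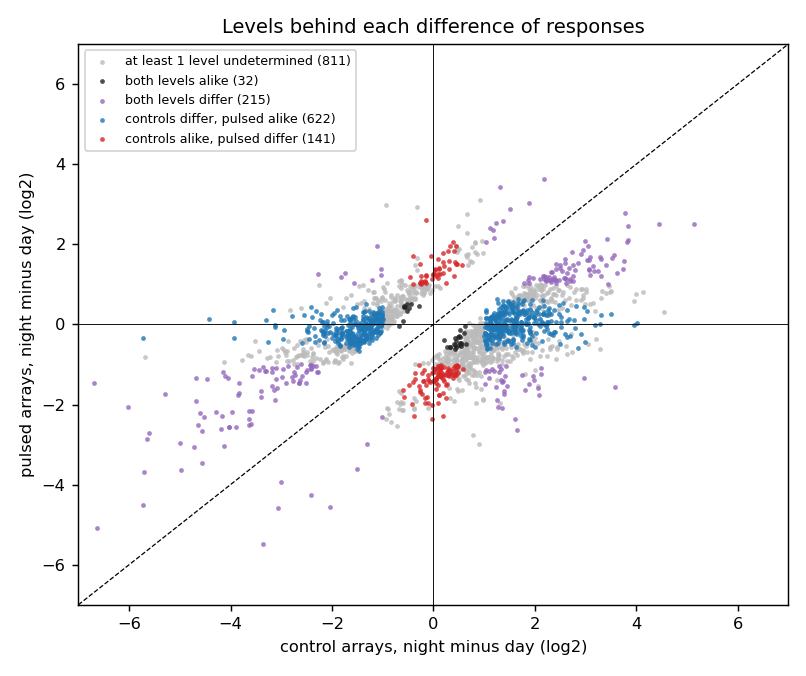
Night minus day difference of control arrays (horizontal axis, log2) against that of pulsed arrays (vertical axis, log2) for the 1821 probe sets called for the difference of responses and measured or bounded, coloured by class. On the dashed line both would be equal, and the 622 probe sets with unequal controls and alike pulsed levels lie along the horizontal axis while the 141 of the mirror image lie along the vertical axis.

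Among genes with unequal controls and alike pulsed levels, the largest positive differences belonged to transcripts that were high in the day controls and low in the other 3 groups. AT2G38820 read 55.7, 63.7 and 55.5 in the night controls, 29.5, 51.1 and 42.4 after the night pulse, 1055, 924 and 786 in the day controls and 36.7, 37.5 and 40.3 after the day pulse. The day controls stood above all 9 other arrays, none of which read over 63.7. Its difference of responses was 3.997 ± 0.30 (adjusted p = 4.86e-06), made up of a fall by 4.51 ± 0.21 in the day and a value of -0.52 ± 0.21 at night without a call (adjusted p = 0.138). AT5G03230 and AT5G55970 had day control means of 480.0 ± 25.4 and 281 ± 17.5, and no mean above 52.7 and 31.7 elsewhere. Their differences were 3.51 ± 0.29 and 3.41 ± 0.34. AT5G26740 had a day control mean of 1751 ± 501 against 244 ± 15.7 in the night controls, and ended at 136 ± 11.99 and 118 ± 17.5 after the pulses. Here the night pulse also lowered the transcript, by 0.83 ± 0.21, so the difference of 3.004 ± 0.29 was between a small fall and a large one.

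Of the genes with a symbol in this direction, the largest were SKP2A, TRM19 and ATG8H. SKP2A (AT1G21410), an F-box protein that targets cell cycle regulators for breakdown, read 62.6, 60.99 and 75.7 in the night controls, 127, 149.5 and 184 after the night pulse, 328, 339 and 423 in the day controls and 160.0, 80.9 and 108 after the day pulse. It rose at night by 1.18 ± 0.24 and fell in the day by 1.67 ± 0.24, so both pulses brought it toward a middle level (2.85 ± 0.34, adjusted p = 0.000112). The pulsed arrays of both times overlapped, and the control arrays did not. TRM19 (AT3G53540), of a family that recruits proteins to cortical microtubules, read 90.1, 104 and 106 in the night controls, 84.2, 88.9 and 79.05 after the night pulse, 547, 598 and 564 in the day controls and 91.9, 90.5 and 88.4 after the day pulse. The day controls were 5.61-fold above the night controls, and the pulsed levels differed by -0.10 ± 0.16 with an interval of -0.45 to 0.24. ATG8H (AT3G06420), one of the small proteins that coat autophagosomes, had a day control mean of 435 ± 116 and 77.6 ± 24.8, 62.4 ± 23.99 and 72.8 ± 34.8 in night control, night pulse and day pulse. Its difference was 2.28 ± 0.49 (adjusted p = 0.00648).

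The largest negative differences of this class were the reverse picture, with transcripts low in the day controls alone. AT3G49220 read 1046, 932 and 976 in the night controls, 1181, 1011 and 939.7 after the night pulse, 169, 110.2 and 131 in the day controls and 1650, 1767 and 1344 after the day pulse. Only the day controls were low, and the day pulse carried the transcript past the night levels. The difference was -3.45 ± 0.26 (adjusted p = 4.86e-06), with a night change of 0.08 ± 0.18 without a call. AT1G44000 had means of 773 ± 113, 948 ± 97.7 and 877 ± 157 in those groups, and 111 ± 14.2 in the day controls. AT1G19450 and AT5G52420 had differences of -3.16 ± 0.47 and -2.58 ± 0.41, from day control means of 59.9 ± 23.6 and 53.2 ± 24.2. For AT1G69730 the day controls were dim, at 14.3, 3.29 and 23.1, so that the day response exceeded that of night at least 7.92-fold (adjusted p = 1.1e-05).

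Of the genes with a symbol in the negative direction, the largest were HYH, GTR1 and HCT. HYH (AT3G17609), a bZIP factor akin to the photomorphogenesis regulator HY5, read 98.4, 115 and 124 in the night controls, 364, 364 and 422 after the night pulse, 14.3, 24.9 and 23.2 in the day controls and 364, 341 and 432 after the day pulse. Pulsed arrays overlapped closely, whereas day controls were near or under the floor and night controls were not. HYH therefore rose at both times, by 1.76 ± 0.18 at night and by at least 3.91 in the day, to levels that differed by 0.02 ± 0.18 (interval -0.36 to 0.40). GTR1 (AT3G47960), a transporter of glucosinolates, rose from 101 ± 13.4 to 246 ± 31.4 at night and from 28.4 ± 7.30 to 327 ± 48.01 in the day, a difference of -2.15 ± 0.30 (adjusted p = 0.000306). HCT (AT5G48930), an acyltransferase of the phenylpropanoid pathway, read 667, 623 and 664 in the night controls, 635, 818 and 618 after the night pulse, 284, 152 and 161 in the day controls and 883, 848 and 825 after the day pulse. It was low in the day controls alone, and rose in the day by 2.15 ± 0.21 with a night value of 0.07 ± 0.21 (adjusted p = 0.886). Its call was lost without normalization (-1.80, adjusted p = 0.064).

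Genes with alike controls and unequal pulsed levels started within 2-fold of each other and ended further apart. The largest negative differences of this class came from higher levels after the day pulse than after the night pulse. AT1G75370 read 142, 137 and 138 in the night controls, 134, 84.2 and 88.1 after the night pulse, 189, 173 and 183 in the day controls and 402, 556 and 551 after the day pulse. Every day pulse array lay above every other array, and the control arrays did not overlap. Its control levels differed by -0.38 ± 0.20 (interval -0.81 to 0.05), and it rose in the day by 1.45 ± 0.20 with a night value of -0.47 ± 0.20 (adjusted p = 0.154). AT1G73390 rose at both times, from 94.6 ± 16.2 to 281 ± 45.95 and from 71.6 ± 10.9 to 711 ± 122, with a difference of -1.72 ± 0.29. AT1G76360 and AT5G35735 had differences of -1.80 ± 0.37 and -1.91 ± 0.50, and AT5G35735 was no longer called when night pulse replicate 2 (adjusted p = 0.0526), night control replicate 1 (0.0571) or day control replicate 2 (0.0547) was left out. AT1G13650 reached 254 ± 42.97 after the day pulse from day controls of 0.913, 0.549 and 1.30, and 53.1 ± 20.8 after the night pulse. Its alike controls rest on the floor, below which their order is not known, and the day response exceeded that of night at least 5.55-fold. All 5 calls were lost without normalization, with adjusted p from 0.0543 to 0.0881.

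UGT88A1 (AT3G16520), of the family that attaches sugars to small molecules, was a gene with alike controls whose pulses acted in opposite directions. It read 1023, 994 and 1244 in the night controls, 636, 516 and 748 after the night pulse, 1105, 643 and 737 in the day controls and 1454, 1533 and 1415 after the day pulse. It fell at night by 0.79 ± 0.20 and rose in the day by 0.86 ± 0.20, and the pulsed arrays did not overlap (-1.65 ± 0.29, adjusted p = 0.00157). RING1 (AT5G10380), a RING-type ubiquitin ligase, read 55.4, 77.2 and 70.01 in the night controls, 132, 60.3 and 148 after the night pulse, 60.3, 66.98 and 53.3 in the day controls and 296, 248 and 256 after the day pulse. Control arrays overlapped and the day pulse arrays were the highest, but its call (-1.47 ± 0.40, adjusted p = 0.0248) was lost without night control replicate 2 (adjusted p = 0.0653), night control replicate 3 (0.0598) or day control replicate 3 (0.0658). SGP2 (AT3G21700), a small GTP-binding protein, rose in the day to 89.98 ± 22.8 from dim day controls, and its day response exceeded that of night at least 2.87-fold. For SGP2, night control replicate 2 (20.7) and day control replicate 2 (12.87) lay under the floor. Its alike controls therefore rest in part on the floor. The UGT88A1 call was lost with median centring (-0.92, adjusted p = 0.0578). The calls of UGT88A1 (-1.22, adjusted p = 0.173), RING1 (-1.61, adjusted p = 0.0732) and SGP2 (-1.22, adjusted p = 0.122) were lost without normalization.

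In the positive direction of this class, 3 of the 5 largest fell after the day pulse with no night call, and 2 rose at night with no day call. AT1G21440 read 259.7, 292 and 255 in the night controls, 275, 333 and 385 after the night pulse, 165, 274 and 285 in the day controls and 125, 81.04 and 83.5 after the day pulse. Day pulse arrays lay under all others, and the difference was 1.58 ± 0.34 (adjusted p = 0.00613). AT5G16250 and AT4G17610 fell in the day by 1.36 ± 0.23 and 1.44 ± 0.22, with night values of 0.16 ± 0.23 and 0.21 ± 0.22 without a call. AT4G02850 and AT1G65560 rose at night, by 1.06 ± 0.30 and 1.18 ± 0.20, and were not called in the day. For AT1G65560 the day pulse arrays were dim, and the responses differed at least 3.12-fold. Without normalization the calls of AT5G16250 (1.56, adjusted p = 0.166), AT4G17610 (1.21, adjusted p = 0.11) and AT4G02850 (1.57, adjusted p = 0.0735) were lost.

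Of the genes with a symbol in this direction, the largest were FBL17, FOLB2 and CHR17, all called in this direction through a fall in the day. CHR17 (AT5G18620), a chromatin remodeller of the ISWI type, read 122, 122 and 142 in the night controls, 172, 144 and 124 after the night pulse, 95.5, 142 and 141 in the day controls and 81.2, 62.2 and 46.8 after the day pulse. It fell in the day by 0.98 ± 0.23, to arrays lower than all others, and had 0.18 ± 0.23 at night. Its call (1.16 ± 0.33, adjusted p = 0.0313) was lost with any 1 of 9 arrays left out (adjusted p = 0.0518 to 0.0841). FBL17 (AT3G54650), an F-box protein that removes inhibitors of the cell cycle, fell in the day by 1.71 ± 0.26 from control means of 113 at night and 115 in the day. FOLB2 (AT5G62980), an enzyme of folate synthesis, fell by 1.49 ± 0.28. The FBL17 call (1.26 ± 0.37) was lost with any 1 of 6 arrays left out (adjusted p = 0.0572 to 0.1), and the FOLB2 call (1.23 ± 0.39) was lost with any 1 of 10 arrays left out (adjusted p = 0.0566 to 0.121). All 3 calls were also lost without normalization.

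**Figure D2:**
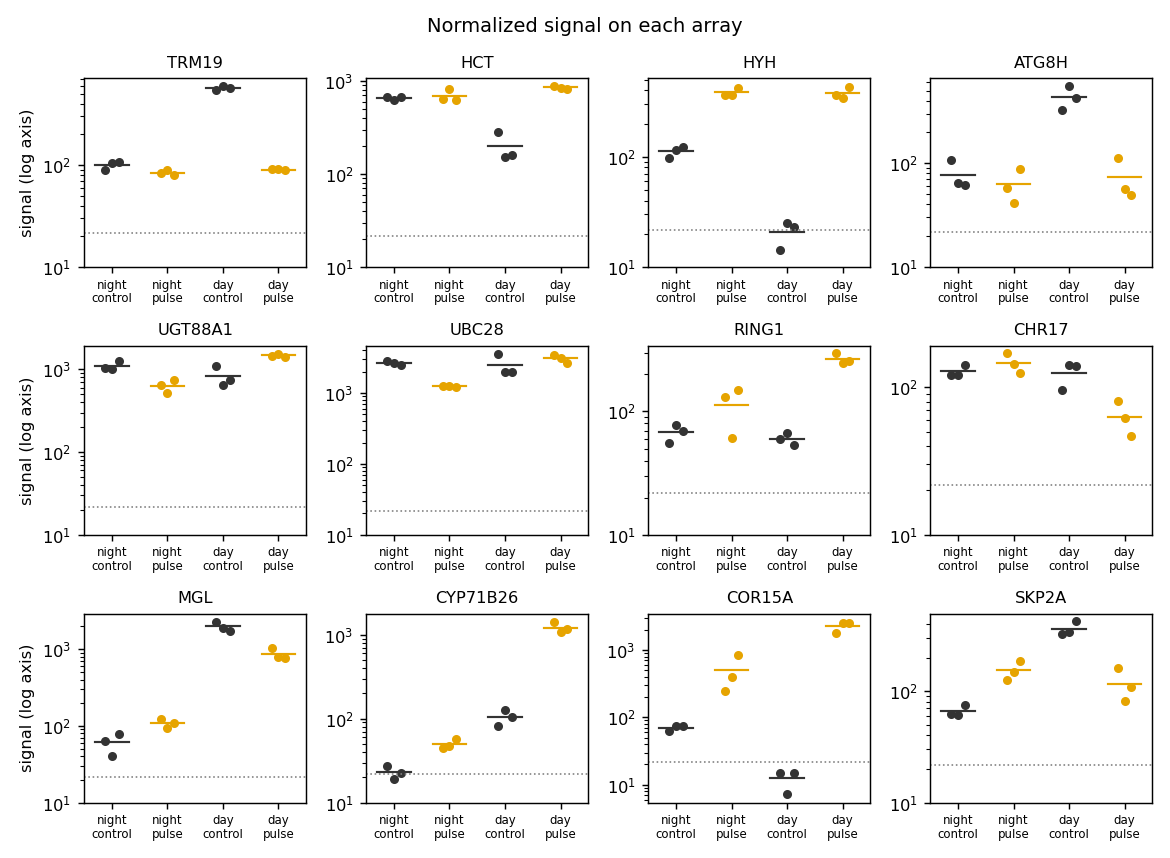
Normalized signal on each array (vertical log axis) for 12 genes, with night controls and pulsed arrays at left and day controls and pulsed arrays at right in each panel. Points are arrays, bars are means of 3, and the dotted line is the floor at 21.7. TRM19, HCT, HYH and ATG8H had unequal controls and alike pulsed levels, UGT88A1, UBC28, RING1 and CHR17 alike controls and unequal pulsed levels, MGL, CYP71B26 and COR15A were unequal in both, and SKP2A moved in opposite directions.

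Where both levels were unequal, part of the gap between controls remained, grew or turned over after the pulse. AT2G32150 stood 39.1-fold higher in day than night controls (3779 ± 622 and 95.5 ± 21.7), and 3.31-fold higher after the pulses. AT4G32870 rose at night by 1.52 ± 0.22 and fell in the day by 1.28 ± 0.22, which narrowed a 17.2-fold control gap to 2.46-fold. AT5G08350 changed order, being 3.37-fold lower at night in controls and 2.44-fold higher at night after light. AT3G02910 and AT1G04770 changed order the other way, with differences of -3.38 ± 0.28 and -3.35 ± 0.43.

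COR15A (AT2G42540), which encodes a chloroplast protein that protects membranes from freezing, had the largest negative difference among the named genes. It read 63.1, 74.4 and 74.5 in the night controls, 249.8, 401 and 842 after the night pulse, 15.1, 7.28 and 14.9 in the day controls and 1791, 2551 and 2500 after the day pulse. Night controls lay above all day controls, and day pulse arrays above all night pulse arrays, so the order turned over. The response in the day exceeded that at night at least 15.6-fold (adjusted p = 7.56e-05). CYP71B26 (AT3G26290), a cytochrome P450, read 27.1, 19.1 and 22.3 in the night controls, 45.01, 47.4 and 57.04 after the night pulse, 82.8, 126 and 105 in the day controls and 1421, 1067 and 1154 after the day pulse. It rose at both times but from higher day controls, so that a 4.10-fold gap widened to 23.4-fold (-2.51 ± 0.29, adjusted p = 8.31e-05).

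The same calls can be read by the time at which light acted. Of all probe sets tested, 14.4% were called after the night pulse, 7.01% rising and 7.35% falling. After the day pulse 43.6% were called, 21.0% rising and 22.6% falling. Of the 1821, 785 changed at least 2-fold in the day while the interval of the night change lay within 2-fold, 452 of them rising and 333 falling. The reverse held for 40, of which 23 rose and 17 fell at night. Another 254 changed at least 2-fold in the same direction at both times, 245 of them by more in the day. For these counts the share over all probe sets tested was not taken. A call rests on the gap between the 2 changes, so selection bears on the counts, and they are given as a description. The count of 785 was 487 without night control replicate 3, 517 without night pulse replicate 3 and 1200 without day control replicate 1. The count of 40 was 26 without day control replicate 2 and 61 without day control replicate 1. Without normalization 464 of the 1994 calls were kept, so the count of 785 does not hold under that scaling.

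Genes that changed 2-fold in the day alone started from both alike and unequal controls. A smaller change at night could still be called, as for DER2.1 (-0.56 ± 0.16, adjusted p = 0.0339). Of the 785, 317 had unequal controls and alike pulsed levels, 56 had alike controls and unequal pulsed levels, 86 were unequal in both, and 326 had a level that was neither or were alike in both. Of the 40 that changed 2-fold at night alone, these counts were 10, 5, 8 and 17. Opposite responses of at least 2-fold were found for 19, of which 13 rose at night and fell in the day. Of opposite responses called at any size, the largest positive difference with 1 gene named was that of SKP2A. AT3G56200 read 204, 251 and 199 in the night controls, 110.1, 121 and 142 after the night pulse, 75.4, 90.2 and 80.8 in the day controls and 494, 308 and 475 after the day pulse. It fell at night by 0.80 ± 0.21 and rose in the day by 2.32 ± 0.21, with no overlap between control and pulsed arrays at either time. AT4G21870 fell at night from 460.2 ± 21.8 to 128 ± 12.8 and rose in the day from 93.5 ± 22.4 to 193 ± 44.5, a difference of -2.86 ± 0.30 (adjusted p = 3.41e-05).

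**Figure D3:**
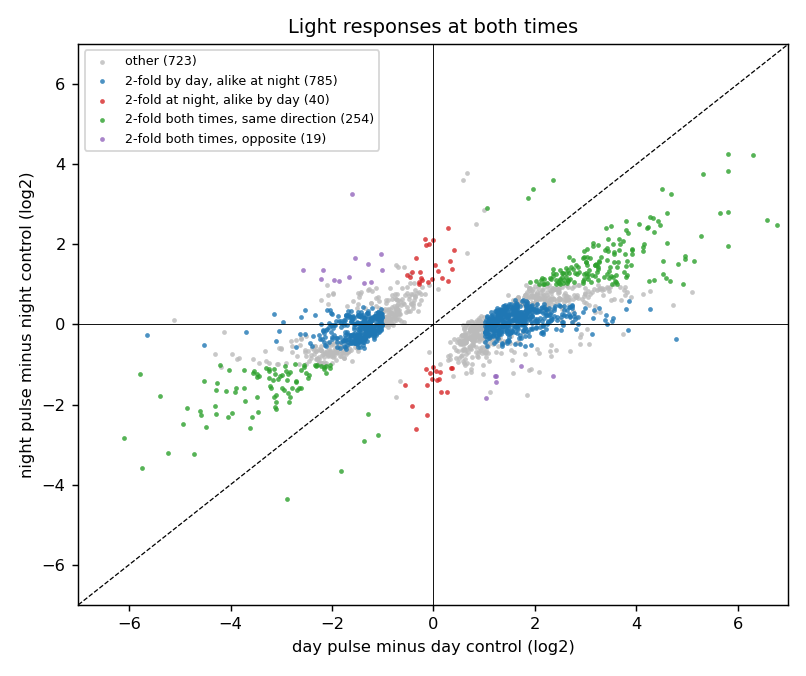
Change after the day pulse (horizontal axis, log2) against change after the night pulse (vertical axis, log2) for the 1821 probe sets, coloured by type of response. On the dashed line both changes would be equal. The 785 probe sets that responded 2-fold in the day alone lie along the horizontal axis, and the 40 that did so at night alone lie along the vertical axis.

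Gene families were described where at least 5 members were tested and at least 3 called, each gene by its brightest probe set. Of all 7278 genes tested, 949 were called (13.0%), 468 more positive at night (6.43%) and 481 more negative (6.61%), with a median difference of 0.07. After the night pulse 12.8% were called, 5.76% rising and 6.99% falling, and after the day pulse 42.8%, 19.1% rising and 23.7% falling. Control levels were called for 48.7%, 24.3% higher and 24.4% lower at night, and pulsed levels for 34.4%, 18.9% higher and 15.5% lower. Families were built from symbols, which few genes carry, and 16 of 56 met this rule.

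**Figure D4:**
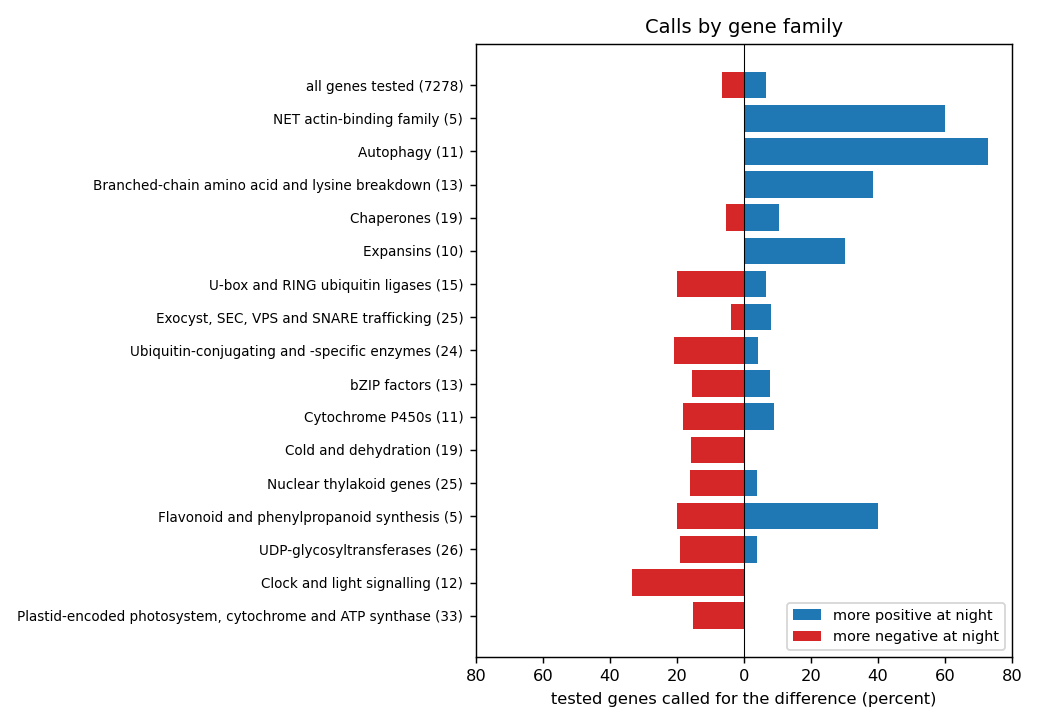
Share of tested genes called for the difference of responses (horizontal axis, percent) in the 16 families described and in all 7278 genes, with the number tested in brackets. Bars to the right are more positive and bars to the left more negative at night. Autophagy, NET, amino acid breakdown and expansin genes have bars to the right only, and clock and light, cold and plastid-encoded genes to the left only.

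Clock and light signalling genes had 4 of 12 more negative at night and 0 more positive, with a median of -0.71. HYH was the largest of these. AFR (AT2G24540), an F-box protein of phytochrome A signalling named here after its values were seen, rose from 54.4 ± 5.17 to 341 ± 70.2 at night and from 27.02 ± 7.63 to 402 ± 102 in the day (-1.21 ± 0.35). TIC (AT3G22380), a clock protein, read 397, 381 and 531 in the night controls, 401, 334 and 321 after the night pulse, 461, 296 and 352 in the day controls and 666, 650.1 and 547 after the day pulse. Its controls and night pulse arrays overlapped and the day pulse arrays lay above all of them, yet its call (-1.06 ± 0.28, adjusted p = 0.02) did not hold when night pulse replicate 3 (adjusted p = 0.0534), night control replicate 3 (0.0626) or day control replicate 3 (0.0513) was left out. CIL (AT4G25990), a factor akin to the chloroplast import regulator CIA2, had night and day controls at 98.6 ± 17.3 and 16.2 ± 9.999, the latter dim. That call did not hold when night pulse replicate 2 (adjusted p = 0.0522), night control replicate 1 (0.0557), night control replicate 3 (0.0529) or day control replicate 3 (0.0548) was left out. Without night control replicate 3 or day control replicate 3 the family had 1 call, and without normalization 1, those of TIC and CIL being among the lost. With median centring 1 was more positive and 3 more negative, and TIC was lost.

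Among bZIP transcription factors, 1 of 13 was more positive and 2 more negative, with a median of -0.08 that became 0.02 with median centring. The negative calls were HYH, counted also among the clock and light genes, and bZIP44. BZIP53 (AT3G62420), which activates genes of amino acid metabolism in energy shortage, fell at both times, from 508 ± 82.3 to 322 ± 43.5 and from 835 ± 17.7 to 192 ± 6.87 (1.45 ± 0.23, adjusted p = 0.000821). The night levels were the lower in controls and the higher after light. bZIP44 (AT1G75390) had a difference of -0.85 ± 0.27, a call lost with any 1 of 9 arrays left out (adjusted p = 0.056 to 0.123). The calls of BZIP53 and bZIP44 were both lost without normalization.

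Nuclear genes of the thylakoid had 1 of 25 more positive and 4 more negative, with a median of -0.31 that was 0.26 with median centring. The split of 1 positive to 4 negative calls was 2 to 1 with median centring and 1 to 1 without normalization, and HCF101 was lost under both. CaS (AT5G23060), a thylakoid calcium sensor, read 1566, 2218 and 1854 in the night controls, 2259, 1738 and 1983 after the night pulse, 227, 258 and 237 in the day controls and 1563, 1036 and 1026 after the day pulse. Only the day controls were low, and the day pulse raised them by 2.29 ± 0.19 to below the night levels (-2.20 ± 0.27, adjusted p = 0.000134). HCF101 (AT3G24430), which supplies iron-sulfur clusters to photosystem I, showed the same order at 666, 716, 141 and 343 in night control, night pulse, day control and day pulse. Its call (-1.16 ± 0.29) was lost without day control replicate 3 (adjusted p = 0.0504). ATPC2 (AT1G15700), a gamma subunit of the chloroplast ATP synthase, went the other way, falling in the day from 129.9 ± 15.4 to 46.8 ± 8.87 (1.66 ± 0.30). Both other negative calls, NdhL and NdhN of the chloroplast NDH complex, had differences of -0.72 ± 0.23 and -0.91 ± 0.27 and were named after their values were seen. The family had 2 negative calls with any 1 of 7 arrays left out.

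Of 33 plastid-encoded photosystem, cytochrome and ATP synthase genes, 5 were more negative at night, 0 more positive and 28 not called, with a median of -1.56. The share called was 15.2%, against 13.0% of all genes. The counts depended on single arrays, from 0 without night pulse replicate 3, night control replicate 2, or day control replicate 2 or 3, to 21 without day control replicate 1. The mean log2 signal of 63 plastid-encoded genes was 8.55 on night pulse replicate 3, 8.99 and 9.08 on day control replicates 2 and 3, and 9.54 on day pulse replicate 2. On the other arrays it was 10.1 to 10.8. The part of these array levels in the calls was not tested. petA, which encodes cytochrome f, read 3461, 4625 and 4253 in the night controls, 3969, 3585 and 2519 after the night pulse, 3430, 1170 and 1510 in the day controls and 5176, 3917 and 4033 after the day pulse. All day controls lay under all night controls, while pulsed arrays of the 2 times overlapped (-1.56 ± 0.44, adjusted p = 0.0289). psbF and psbL, small subunits of photosystem II, had differences of -1.74 ± 0.45 and -1.80 ± 0.53. The petA and psbL calls were lost with any 1 of 5 arrays left out (adjusted p = 0.0662 to 0.0803) and lost with any 1 of 7 arrays left out (adjusted p = 0.0534 to 0.0944), and psbF was no longer called when night pulse replicate 3 (adjusted p = 0.0503), night control replicate 2 (0.0557), day control replicate 2 (0.0526) or day control replicate 3 (0.0534) was left out. The psbF, petA and psbL calls were also lost without the 2 arrays of high GAPDH ratio. The family had 0 calls without normalization and 1 with median centring, where its median was -0.99.

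Autophagy genes, whose products enclose cell contents for breakdown, were more positive at night in most members tested. Of 11 tested, 8 were more positive at night, 0 more negative and 3 not called, with a median of 1.13. All 11 were lower in night than day controls, as were 24.4% of all genes, and all 11 fell after the day pulse, as did 23.7% of all genes. After the night pulse 3 fell and 8 were not called, and 5 of 11 still differed between pulsed arrays. With 1 array left out the count was 6 to 8, and 5 genes were called without normalization and 9 with median centring.

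ATG8 genes encode the small proteins that are attached to the autophagosome membrane. APG8A (AT4G21980) read 129.6, 126 and 116 in the night controls, 123, 109.7 and 150.5 after the night pulse, 614, 771 and 656 in the day controls and 286, 205 and 237 after the day pulse. The night arrays overlapped, and the day pulse arrays lay between them and the day controls (1.52 ± 0.26, adjusted p = 0.00145). ATG8B (AT4G04620) had day control and day pulse means of 1293 ± 333 and 471 ± 160.5, and night control and night pulse means of 78.99 ± 7.38 and 100.3 ± 23.4, so a 15.7-fold gap narrowed to 4.52-fold. AT5G66930, listed under the synonym ATG101 for a part of the kinase complex that starts autophagy, read 79.3, 86.1 and 80.6 in the night controls, 55.7, 62.2 and 59.2 after the night pulse, 263, 236 and 249.5 in the day controls and 71.6, 84.7 and 78.6 after the day pulse. Its day controls stood above all other arrays, and its pulsed levels were alike, but its call was lost without normalization (1.21, adjusted p = 0.242). ATG8E (AT2G45170), named after its values were seen, fell at both times, from 482 ± 33.5 to 50.8 ± 13.6 and from 1688 ± 186 to 65.9 ± 28.7. The calls of 4 of the 8 genes fell in the class of unequal controls and alike pulsed levels, and 0 in the mirror image.

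Genes listed by symbol under breakdown of branched-chain amino acids, lysine and methionine had a median of 0.98. Of 13 tested, 5 were more positive at night and 0 more negative. Such breakdown feeds respiration when sugar is short. The list takes in BCAT4, which was not called and whose role in breakdown was not checked. Night controls were lower than day controls in 11 of 13, with a median control difference of -3.29, and pulsed levels were still lower at night in 9. In the day 9 fell and 1 rose, and at night 1 fell and 2 rose. MGL (AT1G64660), methionine gamma-lyase, read 64.05, 41.1 and 79.3 in the night controls, 125, 93.3 and 108 after the night pulse, 2277, 1912 and 1744 in the day controls and 1025, 788 and 757 after the day pulse. It rose at night by 0.84 ± 0.23 and fell in the day by 1.21 ± 0.23, while day arrays stayed above all night arrays (2.05 ± 0.32, adjusted p = 0.00077). MCCB (AT4G34030), a subunit of an enzyme of leucine breakdown, read 252, 239 and 255 in the night controls, 219, 192 and 218 after the night pulse, 3652, 4514 and 4171 in the day controls and 1668, 947 and 1253 after the day pulse. Its night arrays changed by -0.25 ± 0.19 without a call, and the 16.4-fold control gap was 5.95-fold after light. ETFBETA (AT5G43430), an electron transfer flavoprotein subunit, had means of 121 ± 20.1 and 125 ± 22.8 at night, 530.0 ± 177 in day controls and 179.5 ± 9.37 after the day pulse (1.54 ± 0.33). Both other calls, named after their values were seen, were IVD, of leucine breakdown (1.11 ± 0.24), and AT4G33150, listed under the synonym LKR/SDH for lysine breakdown (1.22 ± 0.35). MCCA, the partner subunit of MCCB, had a control difference of -4.70 ± 0.23 and a difference of responses of 0.21 ± 0.32 without a call (adjusted p = 0.706). Without normalization 2 genes of the family were called, ETFBETA not among them, and with median centring 9.

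**Figure D5:**
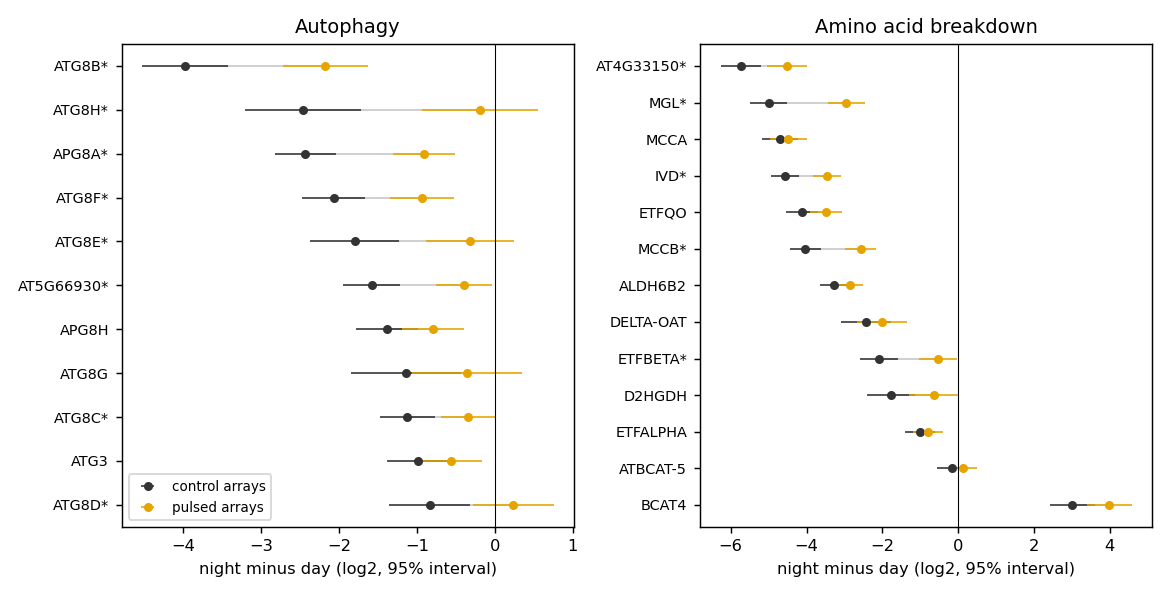
Night minus day difference (horizontal axis, log2, with 95% intervals) of control arrays and pulsed arrays for the 11 autophagy genes and 13 amino acid breakdown genes tested, where an asterisk marks a called difference of responses. Pulsed points lie to the right of control points for every gene shown, and 9 of the 13 amino acid breakdown genes stay lower at night after the pulse. The day controls of BCAT4 were dim, so its points rest in part on the floor.

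Ubiquitin ligases of the U-box and RING kind had 1 of 15 more positive and 3 more negative, with a median of 0.07. Without night control replicate 2 or 3, 1 was more negative, and without normalization 0. RING1 is described above. ATL8, a RING ligase, and PUB25, a U-box ligase, were called with dim groups that left their sizes not measured. ATL8 fell in the day from 1025 ± 416 to 46.6 ± 26.2, and had 40.2 ± 9.14 and 20.9 ± 3.02 at night. Among ubiquitin-conjugating and ubiquitin-specific enzymes, 1 of 24 was more positive and 5 more negative, with a median of -0.02 that was 0.24 with median centring, where 7 were more positive and 2 more negative. The negative count was 2 without night pulse replicate 3, night control replicate 3, day pulse replicate 2 or day control replicate 3, and the positive count 4 without day pulse replicate 1 or day control replicate 1. UBC28 (AT1G64230), a conjugating enzyme, read 2799, 2637 and 2519 in the night controls, 1259, 1253 and 1215 after the night pulse, 3553, 1976 and 1980 in the day controls and 3461, 3081 and 2691 after the day pulse. It fell at night by 1.09 ± 0.20, to arrays below all others, and was not called in the day (-1.44 ± 0.29, adjusted p = 0.00385). Unnormalized arrays gave no UBC28 call (-1.07, adjusted p = 0.198), nor did arrays centred on their medians (-0.78, adjusted p = 0.149). No member of the family was called without normalization. UBP23 (AT5G57990) and UBP25 (AT3G14400), which remove ubiquitin, rose in the day by 1.89 ± 0.23 and 1.05 ± 0.20 with night values of 0.46 ± 0.23 and -0.03 ± 0.20. The UBP25 call was lost with any 1 of 5 arrays left out (adjusted p = 0.0503 to 0.0614).

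Cold and dehydration genes had 3 of 19 more negative at night and 0 more positive (15.8% called, against 13.0% of all genes). Their median was -0.27. With median centring 3 were more positive and 2 more negative. COR15B (AT2G42530), a close relative of COR15A, read 28.6, 39.7 and 94.00 in the night controls, 229.7, 288 and 600.5 after the night pulse, 26.1, 6.45 and 15.2 in the day controls and 1079, 1486 and 1258 after the day pulse. Day pulse arrays lay above all night pulse arrays, and the day response exceeded that of night at least 7.29-fold (adjusted p = 0.00294). Without normalization 1 of the 19 was called, and COR15B was not (-2.56, adjusted p = 0.0549). SRC2 (AT1G09070), a cold-responsive C2-domain protein, had day controls from 276 to 1530, and its call (-1.89 ± 0.59, adjusted p = 0.0468) was lost with any 1 of 10 arrays left out (adjusted p = 0.0633 to 0.107). Among chaperones, 2 of 19 were more positive and 1 more negative (15.8% called, against 13.0% of all genes), with a median of 0.34. Without day pulse replicate 1 or day control replicate 1, 4 were more positive. With median centring 6 were more positive and 0 more negative, and without normalization 1 and 0. DER2.1 (AT4G21810), a derlin that helps export misfolded proteins from the endoplasmic reticulum, read 247, 258 and 308 in the night controls, 208, 159 and 182 after the night pulse, 871, 932 and 839 in the day controls and 261, 216 and 228 after the day pulse. HSA32 (AT4G21320), a heat shock protein of acquired thermotolerance, had a day control mean of 112 ± 21.2 and 24.5, 26.4 and 30.1 in night control, night pulse and day pulse. Both were high in day controls alone, with differences of 1.34 ± 0.23 and 1.75 ± 0.41, and HSA32 was lost without normalization (1.40, adjusted p = 0.116). HSA32 lay under the floor on night pulse replicates 2 (20.58) and 3 (21.62) and day pulse replicate 1 (14.05). Its pulsed levels therefore rest in part on the floor. Cpn60beta4 (AT1G26230), a chloroplast chaperonin subunit, was more negative (-1.18 ± 0.34), a call lost with any 1 of 7 arrays left out (adjusted p = 0.0501 to 0.0852).

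UDP-glycosyltransferases had 1 of 26 more positive and 5 more negative, with a median of -0.48, and 10 were more negative without day control replicate 1. Without night control replicate 2 or day control replicate 2 or 3, 3 were, and without normalization 0. UGT76C2 (AT5G05860), which attaches glucose to cytokinins, read 221, 331 and 213 in the night controls, 51.5, 61.7 and 65.2 after the night pulse, 61.7, 31.8 and 41.1 in the day controls and 30.5, 30.1 and 34.3 after the day pulse. Night controls stood above all other arrays, and it fell at night by 2.04 ± 0.25 against -0.43 ± 0.25 in the day without a call (-1.61 ± 0.35, adjusted p = 0.00765). UGT85A5 was called with both pulsed groups dim and was not measured. GT72B1 (AT4G01070), named after its values were seen, rose at both times to alike levels, 461 ± 152 and 487 ± 170.4, from 132 ± 23.2 and 40.9 ± 20.5. Among cytochrome P450 genes, 1 of 11 was more positive and 2 more negative, with a median of -0.23 that was 0.23 with median centring. CYP71B35 (AT3G26310) rose in the day from 23.6 ± 11.4 to 112 ± 5.52, with night means of 47.3 and 63.4 (-1.62 ± 0.31), a call lost without normalization (-1.50, adjusted p = 0.0622). CYP71B23, the positive call, was not measured because its night pulse arrays were dim, and it was lost with any 1 of 5 arrays left out (adjusted p = 0.0528 to 0.0545). Flavonoid and phenylpropanoid genes had 2 of 5 more positive and 1, HCT, more negative. Both positive calls, CHIL and CCOAMT, were not measured, and CHIL read 61.9, 49.7 and 53.03 in the night controls, 389, 382 and 462 after the night pulse and 0.913, 4.23 and 8.79 in the day controls. Those day controls lay under the floor, and the day pulse mean was 52.7 ± 18.3. With no floor CHIL changed sign (-0.32, adjusted p = 0.753), so its direction rests on the floor. The positive count was 1 without day control replicate 3, and the negative count 2 without day pulse replicate 1.

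NET genes, whose products bind actin filaments to membranes, had 3 of 5 more positive at night and 0 more negative, with a median of 1.54. NET4B (AT2G30500) read 110.5, 106 and 126 in the night controls, 105, 164 and 135 after the night pulse, 256, 611 and 310.4 in the day controls and 78.8, 165 and 133 after the day pulse. NET3A (AT1G03470) had day controls at 112 ± 45.8 and means of 23.7, 24.7 and 29.2 elsewhere. Both were high in day controls alone (1.80 ± 0.45 and 1.84 ± 0.41). NET1D (AT1G03080) instead rose at night, from 54.7 ± 4.70 to 105 ± 10.6, and its day controls overlapped the day pulse arrays (1.54 ± 0.36, adjusted p = 0.0111). All 3 had unequal controls and alike pulsed levels, and all 3 calls were lost without normalization. For NET3A, night pulse replicate 3 (16.85) and day pulse replicate 1 (16.77) lay under the floor. Its alike pulsed levels therefore rest in part on the floor.

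Expansins, which loosen cell walls, had 3 of 10 more positive and 0 more negative, with a median of 0.15 that was -0.05 without normalization. EXPB3 (AT4G28250) rose at night by 1.58 ± 0.27 and had 0.33 ± 0.27 in the day without a call. It read 61.8, 44.6 and 45.1 in the night controls, 184, 182 and 107 after the night pulse, 37.6, 19.6 and 25.03 in the day controls and 30.1, 32.9 and 43.03 after the day pulse. Night pulse arrays lay above all others. EXPA16 (AT3G55500) also rose at night, by 1.27 ± 0.37, and EXLB1 (AT4G17030) differed more between pulsed arrays (2.42 ± 0.28) than between controls (1.12 ± 0.28). The differences were 1.25 ± 0.38, 1.74 ± 0.52 and 1.29 ± 0.39, and each call was lost with any 1 of 8 arrays left out. The family had 0 calls without night pulse replicate 2, night control replicate 2 or 3, day pulse replicate 2 or day control replicate 3.

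Trafficking genes of the exocyst, SEC, VPS and SNARE groups had 2 of 25 more positive and 1 more negative, with a median of 0.06 and a share called of 12.0%, near that of all genes. With median centring 6 were more positive and 1 more negative, with a median of 0.39, and without normalization none of the 25 was called. The positive count was 1 and the negative count 0 with any 1 of 8 arrays left out in each case. VPS60.1 (AT3G10640), of a complex that sorts membrane proteins into endosomes, fell in the day from 248 ± 59.4 to 116 ± 27.6, with night means of 65.97 and 78.5 (1.32 ± 0.33). KEU (AT1G12360), which regulates vesicle fusion at cell division, fell at both times, and its call (0.92 ± 0.28, adjusted p = 0.043) was lost with any 1 of 9 arrays left out (adjusted p = 0.0535 to 0.121). VPS9B was not measured because both day groups were dim. Of the other 40 families, 27 had 1 or 2 calls and 13 had 0.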

How the data were processed

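RNA of 12 samples was hybridized to 1-colour ATH1 arrays, 1 array per sample, in 4 groups of 3. The values used are intensity values that the authors deposited for 22810 probe sets, made with MAS5 per the submitters' processing notes, with version and settings not given in the sources used here. Without detection calls, a floor stood in for background. Here 64 control probe sets were left out, an offset of 2 was added, arrays were quantile normalized and log2 transformed, and the 40th percentile of the probe sets' mean log2 signals over all 12 arrays, a signal of 21.7, set both a filter and a floor. The 13647 probe sets with a mean above it were tested, and lower values on single arrays were set to it. One limma model (limma 3.58.1, R 4.3.3) with 4 group means gave all contrasts, with Benjamini-Hochberg adjustment over all probe sets tested for each contrast. Residual degrees of freedom were 8, and 3 arrays a group set the precision.

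Of the 22746 other probe sets, 13513 had 1 gene in the platform annotation, 503 several and 8730 none listed there, and 13436 of those with 1 gene were matched to RefSeq. Named genes are probe sets with 1 gene, called and measured or bounded: the 5 largest differences in each direction for the class of unequal controls and for that of alike controls, the 3 largest in each direction where both levels were unequal, and the 3 largest with opposite called responses. The largest with a symbol in each class were added, as were, for each family with at least 5 members tested and 3 called, its 3 called members of smallest p. The rule restricted to symbols and the family lists date from after the annotation had been read, since it held no descriptions from which the planned word lists could be applied. Members described as named after their values were seen fall outside this rule. The members and lists were chosen with earlier results of these data known. Steps were tested on simulated data. There, planted differences of 1 and 2 log2 were called in 16.3% and 46.9% of the planted probe sets tested. A gene without a call may thus still differ. In that simulation 13647 probe sets were tested, and 100 were planted at each size. Among probe sets with no planted difference, 6 measured or bounded and 21 not measured were called. Far fewer probe sets differed there than were called in the data, so these rates need not carry over. Alternatives covered normalization, floor, filter, offset, array weights, a replicate block and leaving out arrays.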

Additional observations from a re-analysis of the deposited data

Results flagged for a closer look

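The difference between the night and day responses was itself tested, as 1 contrast of the limma model, and 1994 probe sets passed at an adjusted p under 0.05. The named genes that passed are given with their values, and no explanation was weighed. A value marked as a bound rests on a dim group set to the floor, and the true difference is at least that far from 0. Where control levels differed and pulsed levels were alike, the positive values (log2, night minus day) were AT2G38820 3.997, AT5G03230 3.51, AT5G55970 3.41, AT5G26740 3.004, SKP2A 2.85 and NET3A 1.84. The same group held NET1D 1.54, NET4B 1.80, AT5G66930 1.19, DER2.1 1.34, HSA32 1.75 and TRM19 2.38. Also in that group were ATG8H 2.28. The negative values of that class were AT3G49220 -3.45, AT1G19450 -3.16, AT1G69730 -2.98 (a bound), AT1G44000 -2.66, AT5G52420 -2.58 and HYH -2.15 (a bound). The same group held UBP23 -1.43, HCT -2.08 and GTR1 -2.15. Where control levels were alike and pulsed levels differed, the positive values were AT4G02850 1.77, AT4G17610 1.64, AT1G65560 1.64 (a bound), AT1G21440 1.58, AT5G16250 1.52 and FBL17 1.26. Also in that group were FOLB2 1.23 and CHR17 1.16. The negative values with alike controls were AT1G13650 -2.47 (a bound), AT1G75370 -1.92, AT5G35735 -1.91, AT1G76360 -1.80, AT1G73390 -1.72 and UGT88A1 -1.65. Beside these stood RING1 -1.47, UBC28 -1.44 and SGP2 -1.52 (a bound). Where both levels differed, the positive values were AT2G32150 3.56, AT5G08350 3.04, AT4G32870 2.80, EXLB1 1.29, ATG8B 1.80 and MGL 2.05. The same group held MCCB 1.46. The negative values where both differed were COR15A -3.96 (a bound), AT3G02910 -3.38, AT1G04770 -3.35, AT3G56200 -3.12, CYP71B26 -2.51 and HCF101 -1.16. Among genes with a level neither alike nor 2-fold different, the positive values were EXPA16 1.74, EXPB3 1.25, VPS60.1 1.32, KEU 0.92, BZIP53 1.45 and APG8A 1.52. The same group held ETFBETA 1.54 and ATPC2 1.66. The negative values among those genes were AT4G21870 -2.86, UGT76C2 -1.61, CYP71B35 -1.62, bZIP44 -0.85, UBP25 -1.08 and CaS -2.20. Also in that group were psbF -1.74, petA -1.56, psbL -1.80, COR15B -2.87 (a bound), SRC2 -1.89 and Cpn60beta4 -1.18. Beside these stood TIC -1.06 and CIL -1.26 (a bound).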

How the results depend on the processing

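The number of probe sets called for the difference of light responses, 1994, was 473 without normalization and 4984 with array weights, whose estimation stopped before it converged. Of the calls 44.2% were positive, against 75.1% with arrays centred on their medians and 52.0% without normalization. The class in which control levels differ and pulsed levels alike, 694 of all calls, was 132 without normalization, 1073 with median centring, 1410 with array weights and 240 with limits of 1.5-fold. The mirror class, control levels alike and pulsed levels differ, 174, was 107 with no floor, 21 without normalization, 513 with array weights and 71 with limits of 1.5-fold. With each array left out in turn these counts ran from 1360 to 2854, 468 to 1045 and 113 to 312, the class counts leaving the 1.5-fold range without day control replicate 1 (1045), day pulse replicate 1 (312) or day control replicate 3 (113). With a replicate block they were 2310, 796 and 209, and without the 2 arrays of high GAPDH ratio 2172, 724 and 258. Named calls lost without those 2 arrays included AT5G35735, CYP71B23, KEU, psbF, petA, psbL, SRC2, TIC, CIL and FOLB2. Of 18 same-numbered pairs 8 had correlated deviations above 0.1, with a range of -0.11 to 0.45, which does not settle whether same-numbered samples are paired, and the labels name nothing that they share. Of 81 named genes, 33 were called under all 24 alternatives, 23 were lost under 1, 7 under 2 to 5 and 18 under 6 or more, and 46 were lost without normalization. CHIL, a gene with day controls under the floor, changed sign with no floor (-0.32, adjusted p = 0.754). The causes were not tested. Signals under the floor and 3 arrays a group limit what can be resolved.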
